A study of Homo sapiens with 4 samples.

Results

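DNA repair genes encode the proteins that find and mend breaks, cross-links, mismatched bases and chemically altered bases in DNA. A set of 39 such genes, chosen by name, was read from an expression table of 33478 genes in MHCC-97H, a human hepatocellular carcinoma cell line known for its metastatic capacity. All 39 names matched 1 row each. Transcript abundance was given in the table as TPM, a share of each library's transcripts that is corrected for their length. The groups were 2 libraries labelled as UCK2 knockdown, from cells with a short hairpin RNA (shRNA) against UCK2, and 2 libraries labelled as control, from cells with a control shRNA. UCK2 is a kinase of pyrimidine salvage, acting on uridine and cytidine. Both titles of the UCK2 libraries carry the letter B, and should that stand for 1 hairpin, its other targets cannot be told apart from UCK2. The labels do not say that libraries came from separate cultures, and each p-value covers no more than the spread among the 4.

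Repair is organised by the kind of damage. Homologous recombination copies the sister chromatid to mend double-strand breaks, end joining ligates broken ends directly, and the kinases ATM and ATR signal breaks and stalled forks to the cell cycle. The Fanconi pathway unhooks DNA cross-links, mismatch repair removes replication errors, base excision repair replaces single damaged bases, and nucleotide excision repair cuts out bulky lesions. Dividing cells use several of these routes mainly in S and G2 phase, and many of the genes share a start region with a neighbour read from the opposite strand.

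The labels did not separate UCK2 itself. UCK2 measured 121 and 67.8 TPM in libraries labelled UCK2 shRNA, against 136 and 93.6 TPM in the controls, a log2 difference of -0.31 ± 0.30 (SE, limma adjusted p = 0.640). Each direction below therefore rests on the library titles alone, and in 2 libraries the description field departs from the title, by another cell line number in control replicate 2 and by UCK3 in UCK2 shRNA replicate 2. The share of the fixed TPM total outside the genes used here was 32.3% and 35.7% in libraries labelled UCK2 shRNA and 15.0% and 14.9% in the controls, and over the 14038 genes tested the log2 difference had a median of -0.22. Differences are given beside that median, and also after median-ratio scaling, which brought it to -0.01. After this scaling the log2 difference of UCK2 was -0.08 (limma adjusted p = 0.990). Read totals are unknown, since TPM keeps no depth. All 10 hepatocyte and hepatoma markers passed the filter described below. The highest was the keratin gene KRT8, at 2008 and 1792 TPM in libraries labelled UCK2 shRNA and 2249.8 and 3114 TPM in the controls. ALB measured 20.1 and 18.6 TPM in libraries labelled UCK2 shRNA, against 29.5 and 25.8 TPM in the controls. APOA1 measured 2.01 and 0.250 TPM, against 1.02 and 2.32 TPM in the controls. Among markers of other cells, 1 of 6 fibroblast, 1 of 5 leukocyte and 1 of 3 endothelial genes passed. They were LUM, CD68 and PECAM1, the last at 20.7 and 21.8 TPM, against 24.5 and 20.4 TPM in the controls. CD68 measured 43.7 and 45.6 TPM, against 44.5 and 54.6 TPM in the controls. The extraction protocol names retinas as its source, while 0 of 10 retina markers passed. Their summed level was 1.98 and 2.76 TPM, against 1.60 and 1.90 TPM in the controls.

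Repair gene levels spanned 201-fold. Mean TPM over the 4 libraries ran from 0.834 for BRCA2, a mediator of strand exchange in homologous recombination, to 167 for APEX1, the endonuclease that cuts at abasic sites. The median of the 39, with BRCA2 and LIG4 included although below the filter, was 16.96 TPM. Protein-coding genes that passed the filter and have a transcript length had 16.2 TPM, so the sets are unlike. By mean level the 6 most abundant were APEX1, XRCC5, PARP1, UNG, ERCC1 and PRKDC, of which 3 belong to base excision. The 6 lowest were BRCA2, LIG4, FANCM, MSH3, BLM and WRN. A mean of at least 1 TPM over the 4 libraries was required for testing, and 37 of 39 passed. BRCA2 and LIG4 did not.

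**Figure D1:**
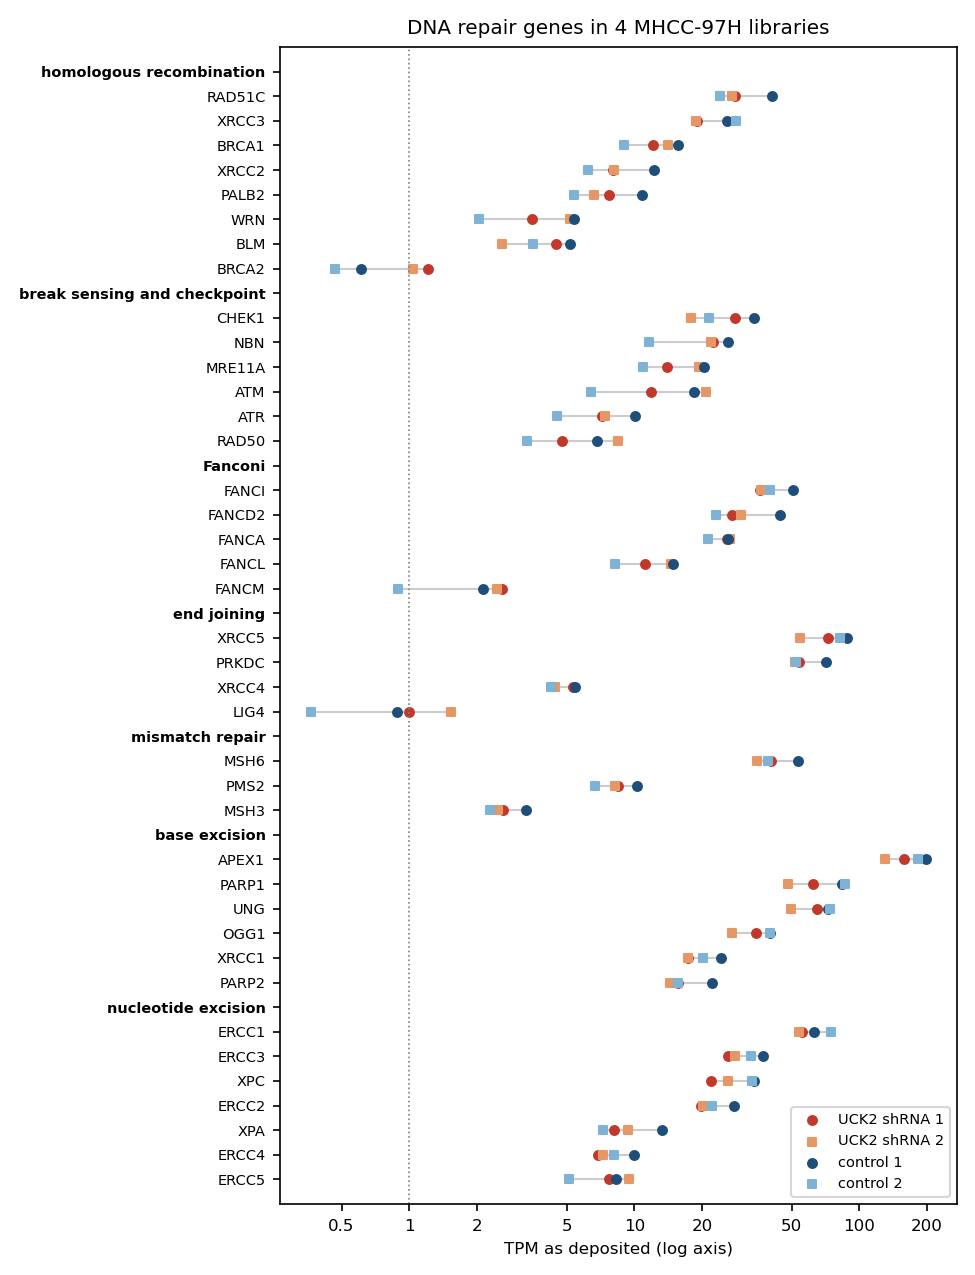
TPM as deposited (log axis) of 39 DNA repair genes in each library, grouped by repair route and ordered by mean level, with the dotted line at 1 TPM. APEX1 lies highest, BRCA2 and LIG4 average below 1 TPM, and control replicate 2 (pale blue squares) is the lowest point for 19 of the 37 genes tested, against 29.9% of all genes tested.

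Start regions were a feature that the choice of genes did not use. A protein-coding neighbour on the opposite strand, with a start within 1000 bases, was found for 16 of 39 repair genes (41.0%), against 2438 of 18833 protein-coding genes of the table (12.9%). PRKDC and the replicative helicase gene MCM4 start 2 bases apart, and LIG4 and ABHD13 start 11 bases apart. Promoters of 3 such genes are printed, because their levels are set beside those of their neighbours further on. Each runs from 250 bases before to 50 bases after a RefSeq start (GRCh38.p14), on the repair gene's own strand, with matches to any of 5 motifs in capitals. The PMS2 and APEX1 windows hold the start of the neighbour as well. The RefSeq start of ATM lies 583 bases downstream of the start in the table, and its window does not hold the start of NPAT. ATM (chr11:108222817-108223116, plus strand) has NPAT as its neighbour, PMS2 (chr7:6009057-6009356, minus strand) has AIMP2, and APEX1 (chr14:20454976-20455275, plus strand) has OSGEP.
ATM: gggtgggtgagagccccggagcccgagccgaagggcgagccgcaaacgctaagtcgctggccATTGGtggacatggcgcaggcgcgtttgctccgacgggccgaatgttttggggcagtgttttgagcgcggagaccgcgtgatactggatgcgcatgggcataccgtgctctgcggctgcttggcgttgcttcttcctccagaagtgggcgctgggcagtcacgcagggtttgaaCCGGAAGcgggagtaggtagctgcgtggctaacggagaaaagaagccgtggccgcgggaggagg
PMS2: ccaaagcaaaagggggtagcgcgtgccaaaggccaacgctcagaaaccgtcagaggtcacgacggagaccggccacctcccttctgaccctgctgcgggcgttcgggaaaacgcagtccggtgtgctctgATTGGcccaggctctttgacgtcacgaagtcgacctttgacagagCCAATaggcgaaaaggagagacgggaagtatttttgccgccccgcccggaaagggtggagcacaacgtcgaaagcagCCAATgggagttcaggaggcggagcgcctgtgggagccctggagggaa
APEX1: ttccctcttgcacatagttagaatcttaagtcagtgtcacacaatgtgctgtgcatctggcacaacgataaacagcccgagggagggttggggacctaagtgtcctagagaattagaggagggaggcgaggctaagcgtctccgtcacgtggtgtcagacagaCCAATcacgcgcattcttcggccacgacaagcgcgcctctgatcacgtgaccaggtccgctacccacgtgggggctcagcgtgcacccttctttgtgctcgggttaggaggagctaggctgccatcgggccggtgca

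Motifs were searched on both strands, each counted by itself even where matches overlap. The letters searched were CCAAT for the CCAAT box, TATAAA for the TATA box, GCGGGAA for the E2F core, CCGGAAG for the ETS core and GCATGCG for the NRF1 core. The ATM region holds 1 CCAAT box and 1 ETS core, the PMS2 region 3 CCAAT boxes and the APEX1 region 1 CCAAT box. A RefSeq window starting within 2000 bases of the table's start was found for 31 repair genes. The ETS core was present in 14 of 31 (45.2%), against 10.3% of all 35116 windows and 12.8% of those of protein-coding genes. The E2F core was present in 9 of 31 (29.03%), against 6.55% of all windows and 8.13% of coding ones. CCAAT was found in 15 of 31, against 34.6% of all windows and 34.7% of coding ones. NRF1 was found in 3 of 31, against 3.91% of all windows and 4.63% of coding ones. TATAAA was in 0 of 31, against 11.5% of all windows and 9.47% of coding ones. Median GC content was 63.7% in the repair gene windows and 62.3% in coding windows. These are matches of letters in 1 window a gene and do not show binding.

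Levels of genes that share a start region were close in some pairs and far apart in others. Of the 16 neighbours, 13 averaged at least 1 TPM, and 9 of these were more abundant than their repair gene. PMS2 averaged 8.38 TPM over the 4 libraries and AIMP2, a scaffold of tRNA synthetases, 60.8 TPM, a ratio of 7.26. PALB2 averaged 7.62 TPM and DCTN5, a dynactin subunit, 69.6 TPM. XPC averaged 28.9 TPM and LSM3 30.8 TPM, XRCC3 22.9 TPM and ZFYVE21 25.1 TPM, and LIG4 0.946 TPM and ABHD13 1.20 TPM. The repair gene was the more abundant for APEX1, at 167 TPM beside 24.4 TPM for OSGEP, and for ATM, at 14.3 TPM beside 3.82 TPM for the histone gene regulator NPAT. MCM4 measured 181 and 118 TPM in libraries labelled UCK2 shRNA and 258 and 225 TPM in the controls, a scaled log2 difference of -0.48, against 0.03 for PRKDC. The difference between the neighbours was not tested.

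**Figure D2:**
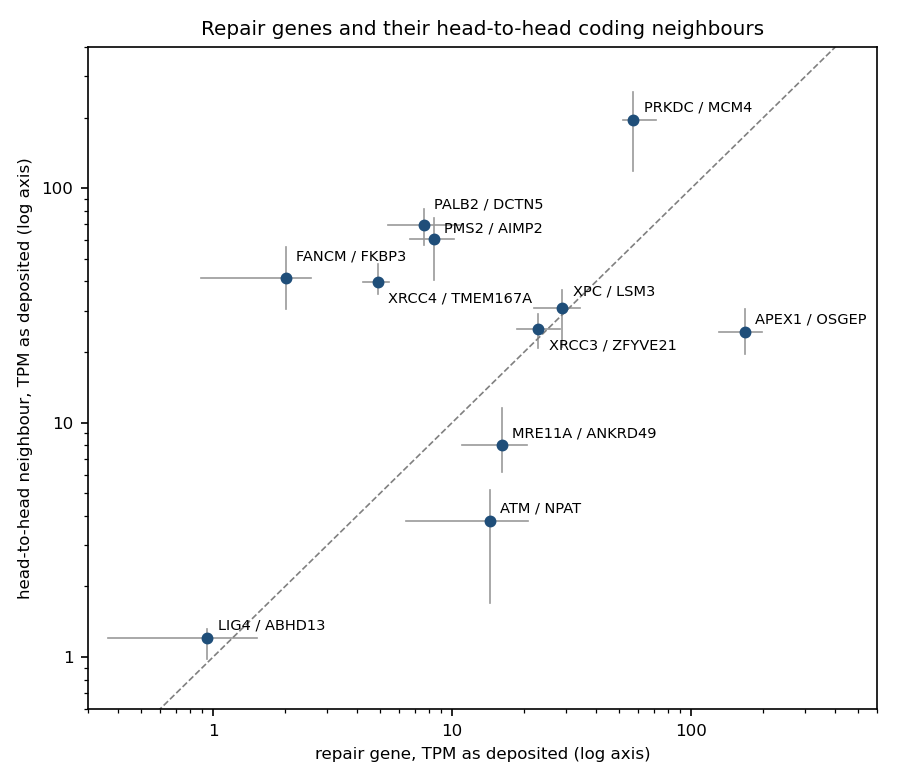
Mean TPM as deposited of repair genes (horizontal, log axis) and of their head-to-head protein-coding neighbours (vertical, log axis), with lines from the lowest to the highest of 4 libraries and a dashed line at equal levels. FANCM and its neighbour FKBP3 lie farthest above the line, at 2.02 and 41.6 TPM, and APEX1 and OSGEP farthest below. The plot holds 11 pairs, and those not drawn include neighbours averaging under 1 TPM and IL5, listed at 0 in both controls.

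Between the labelled groups no repair gene passed the test. The groups were compared with limma on log2(TPM + 1), two-sided, with Benjamini-Hochberg adjustment over the 14038 genes and a threshold of 0.05. As deposited, 0 of 37 repair genes passed as higher and 0 as lower, as did 0 of all genes (0%), and the smallest adjusted p of a repair gene was 0.294. At an unadjusted p under 0.05, 0 of 37 were higher, against a background of 1.38%, and 4 of 37 (10.8%) were lower, against 14.0%. These 4 were PARP1, APEX1, XRCC3 and XPC. After scaling 0 of 37 passed in either direction, against 0.0641% of all genes higher and 0% lower, and 0 of 37 had an unadjusted p under 0.05, against 3.97% higher and 1.42% lower. No repair gene passed under any of the planned settings. The crossed pairing under which 1 did was added after seeing the data and is given with the other settings at the end.

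The median log2 difference of the 37 was -0.18 as deposited, beside -0.22 for all genes, and 0.06 after scaling, beside -0.01. Above 0 were 13 of 37 as deposited, against 25.3% of all genes, and 20 of 37 (54.1%) after scaling, against 49.2%. Groups did not overlap for 1 repair gene higher and 13 lower as deposited, against 5.46% and 44.4% of all genes. After scaling 6 were higher (16.2%) and 8 lower (21.6%) without overlap, against 16.0% and 15.5%. The share higher is near the background. Summed over the 39, TPM was 958 and 889 in libraries labelled UCK2 shRNA and 1238 and 1019 in the controls.

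**Figure D3:**
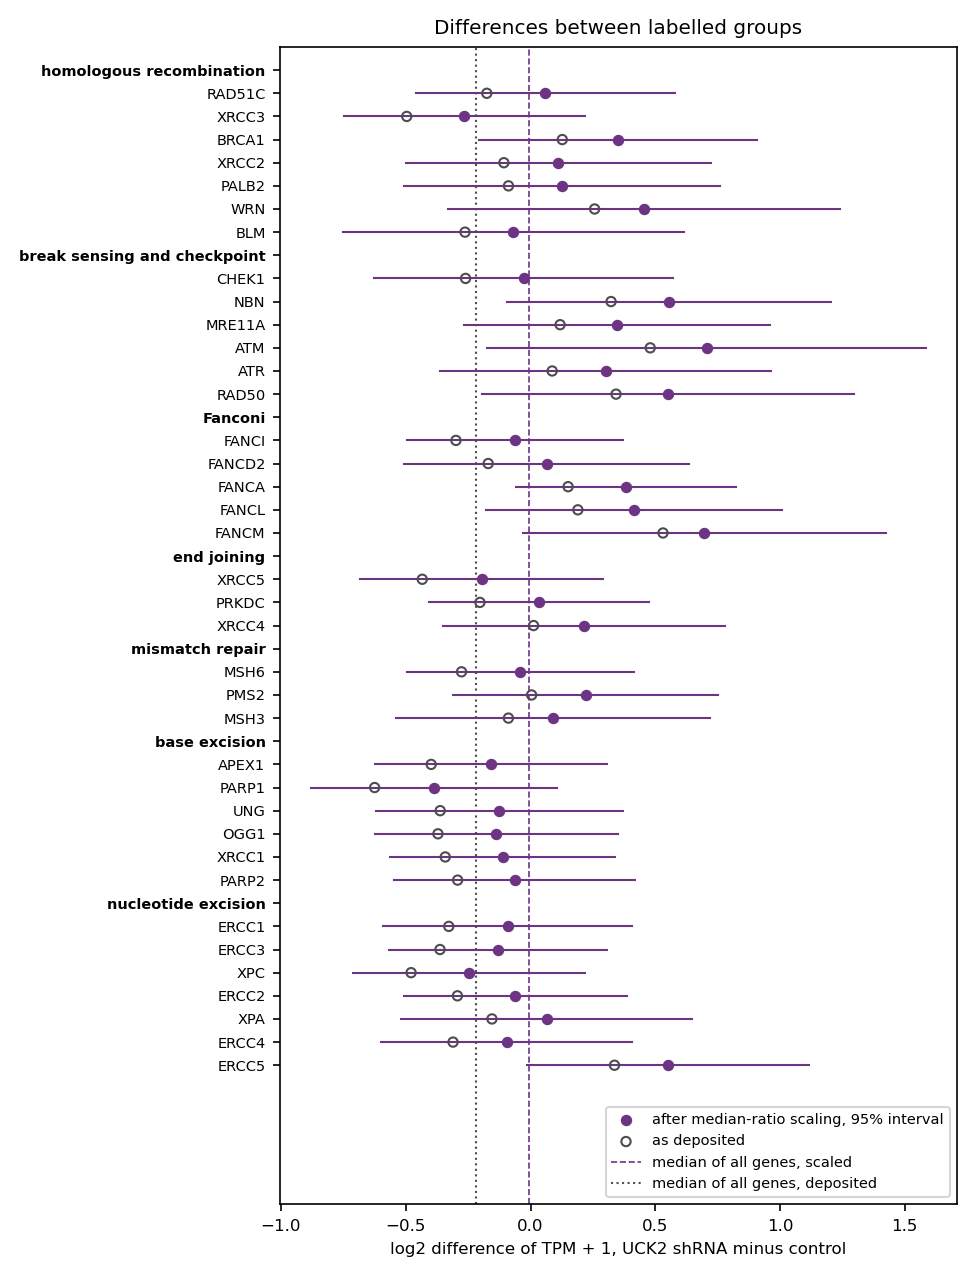
Log2 difference of TPM + 1 (horizontal, UCK2 shRNA minus control) of the 37 repair genes tested, as deposited (open circles) and after median-ratio scaling (filled, with 95% intervals from limma). Vertical lines are the medians of all 14038 genes, -0.22 as deposited and -0.01 scaled, and every scaled interval includes 0.

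The routes differed in where their genes lay, and also in transcript length, which is described further on. After scaling, all 6 base excision genes and 5 of 7 nucleotide excision genes had a log2 difference below 0, against 50.8% of all genes. Their route medians were -0.13 and -0.09. Above 0 were 5 of 6 break sensing genes, 4 of 5 Fanconi genes and 5 of 7 recombination genes, against 49.2% of all genes. Medians of these routes were 0.45, 0.38 and 0.11. The values of single libraries follow beside each route, because 1 control library stood apart in several routes. In the scaled table, control replicate 2 was the lowest of the 4 libraries for 20 of 37 repair genes (54.1%), against 34.3% of all genes. It was lowest for 5 of 6 break sensing, 4 of 5 Fanconi and 5 of 7 recombination genes, and for 0 of 6 base excision genes. Without control replicate 2, the scaled route medians became 0.09 for break sensing, 0.14 for Fanconi and -0.19 for recombination. Of 37 repair genes 14 then lay above 0, in place of 20. The base excision values rested on another library: without UCK2 shRNA replicate 2 their scaled median became -0.0011, with 3 of 6 genes above 0, and without UCK2 shRNA replicate 1 it became -0.31.

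**Figure D4:**
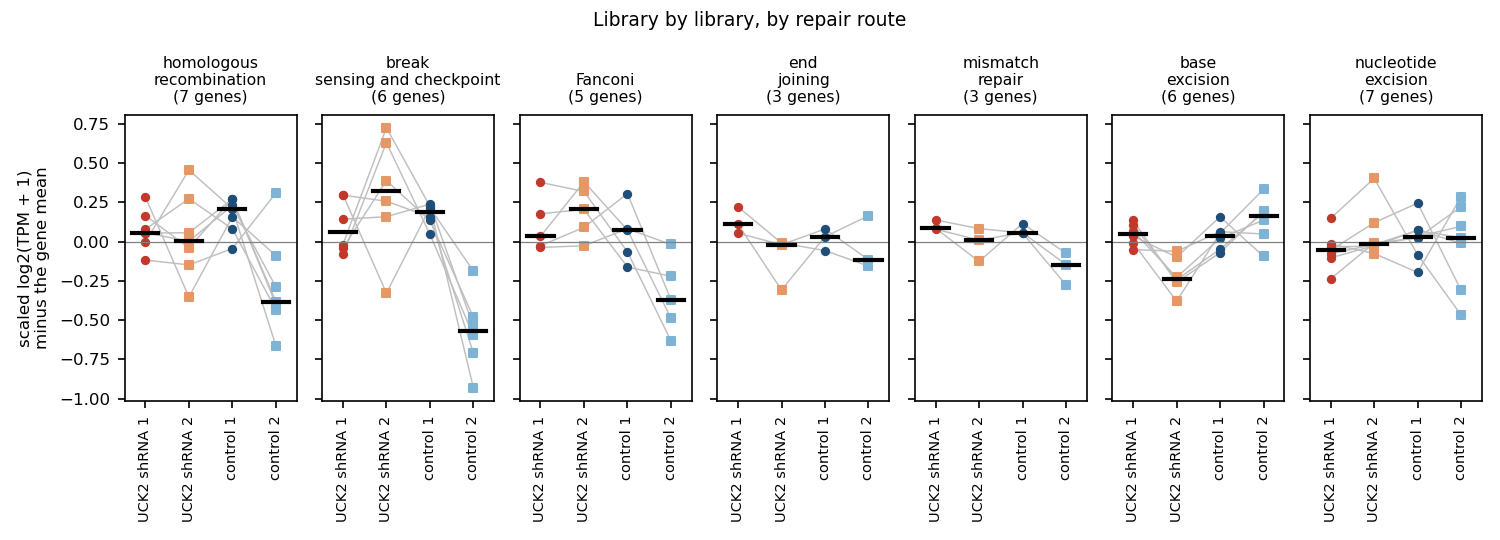
Scaled log2(TPM + 1) of each repair gene minus its own mean (vertical) in the 4 libraries, by route, with lines joining the libraries of a gene and black bars at the route median. The median in control replicate 2 is -0.57 for break sensing, -0.38 for recombination and -0.37 for Fanconi genes, and 0.16 for base excision genes, whose lowest library is UCK2 shRNA replicate 2 at -0.24.

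Break sensing and checkpoint genes differed widely between libraries of 1 group. Gene positions here are the table's own, on hg38 per the submitters' processing notes. ATM, the kinase that responds to double-strand breaks (chromosome 11, 108222484 to 108369102), measured 11.9 and 20.7 TPM in libraries labelled UCK2 shRNA, against 18.4 and 6.41 TPM in the controls. The groups overlap, and the 2 controls differ by more than the group means do. Its log2 difference was 0.48 ± 0.47 (SE, limma adjusted p = 0.650), or 0.71 after scaling (95% interval -0.17 to 1.59, limma adjusted p = 0.955). Without control replicate 2 the scaled difference of ATM was 0.14, and as deposited it turned to -0.21.

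The MRE11-RAD50-NBN complex binds broken ends and activates ATM. NBN, its regulatory subunit (chromosome 8, 89933336 to 90003228), measured 22.3 and 21.9 TPM in libraries labelled UCK2 shRNA and 26.0 and 11.6 TPM in the controls. After scaling the NBN groups no longer overlapped, and the log2 difference was then 0.55 (95% interval -0.10 to 1.20, limma adjusted p = 0.951) and 0.13 without control replicate 2. RAD50, the structural ATPase, measured 4.78 and 8.49 TPM, against 6.85 and 3.35 TPM in the controls. Its nuclease partner, listed in the table by its older symbol MRE11A, measured 13.9 and 19.3 TPM, against 20.5 and 10.96 TPM in the controls. All 3 subunits were lowest in control replicate 2. ATR, the kinase of stalled forks, measured 7.21 and 7.38 TPM in libraries labelled UCK2 shRNA and 10.04 and 4.53 TPM in the controls. CHEK1, the kinase that ATR activates, had another order, with 27.9 and 17.9 TPM in libraries labelled UCK2 shRNA and 33.9 and 21.5 TPM in the controls. UCK2 shRNA replicate 2 was its lowest library, and its scaled difference was -0.03.

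Among homologous recombination genes, 1 of the 7 tested, XRCC3, was lower without overlap as deposited, against 44.4% of all genes. BRCA2, which was below the filter, was higher without overlap. XRCC3, which acts in strand exchange (chromosome 14, 103697609 to 103715504), measured 18.9 and 18.7 TPM in libraries labelled UCK2 shRNA, against 25.8 and 28.2 TPM in the controls. Its log2 difference was -0.50 ± 0.19 (SE, limma adjusted p = 0.299) and -0.27 after scaling (95% interval -0.75 to 0.22). KLC1, which overlaps it on the opposite strand, measured 108 and 128 TPM, against 174 and 179 TPM in the controls. Nothing in the sources states that counting used the strand, so reads of overlapping opposite genes, which 23 of the 39 have, may not have been told apart. BRCA2 measured 1.22 and 1.04 TPM in libraries labelled UCK2 shRNA and 0.610 and 0.469 TPM in the controls, too low for the test. With no filter on low values its log2 difference was 0.47 ± 0.17 (SE, limma adjusted p = 0.4999).

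BRCA1, the ubiquitin ligase that directs breaks to recombination, measured 12.1 and 14.1 TPM in libraries labelled UCK2 shRNA and 15.6 and 8.97 TPM in the controls. Its scaled log2 difference was 0.35 (95% interval -0.20 to 0.91, by limma with adjusted p = 0.955), and 0.10 without control replicate 2. RAD51C, which forms a complex with XRCC3 and was the most abundant gene of the route, measured 28.1 and 27.3 TPM, against 41.1 and 23.9 TPM in the controls. The UCK2 shRNA values lay between the controls for RAD51C, as they did for BRCA1, PALB2 and XRCC2. PALB2, which links BRCA1 to BRCA2, measured 7.70 and 6.63 TPM in libraries labelled UCK2 shRNA and 10.8 and 5.37 TPM in the controls. XRCC2, which acts early in strand exchange, measured 8.05 and 8.15 TPM, against 12.3 and 6.24 TPM in the controls. WRN and BLM are RecQ helicases that resolve recombination intermediates. WRN measured 3.49 and 5.198 TPM in libraries labelled UCK2 shRNA and 5.41 and 2.04 TPM in the controls, a scaled difference of 0.45. BLM measured 4.47 and 2.58 TPM, against 5.198 and 3.54 TPM in the controls, a scaled difference of -0.07. WRN was lowest in control replicate 2 and BLM in UCK2 shRNA replicate 2.

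In the Fanconi pathway FANCM was the only gene of the 37 higher without overlap as deposited, against 5.46% of all genes. FANCM, a translocase that anchors the core complex at cross-links (chromosome 14, 45135940 to 45200890), measured 2.57 and 2.46 TPM in libraries labelled UCK2 shRNA, against 2.13 and 0.893 TPM in the controls. Its log2 difference was 0.53 ± 0.36 (SE, limma adjusted p = 0.494), or 0.70 after scaling (95% interval -0.03 to 1.42, limma adjusted p = 0.918), and 0.42 scaled without control replicate 2. FANCA, a core complex subunit, measured 25.9 and 26.7 TPM, against 26.2 and 21.2 TPM in the controls. FANCI and FANCD2 form the clamp that is ubiquitinated at cross-links, FANCL being the ligase. FANCI measured 36.0 and 36.7 TPM in libraries labelled UCK2 shRNA and 50.7 and 39.9 TPM in the controls, without overlap, and its scaled difference was -0.06. Its partner FANCD2 measured 27.1 and 29.7 TPM, against 44.3 and 23.1 TPM in the controls, so its groups overlapped. FANCL had 11.1 and 14.6 TPM in libraries labelled UCK2 shRNA and 14.8 and 8.17 TPM in the controls.

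End joining genes ran from abundant to near the limit of the filter. XRCC5, the larger subunit of the Ku ring that caps broken ends (chromosome 2, 216107464 to 216206303), measured 72.3 and 54.4 TPM in libraries labelled UCK2 shRNA and 88.3 and 82.0 TPM in the controls. Its log2 difference was -0.43 ± 0.19 (SE, limma adjusted p = 0.335) and -0.20 after scaling, where the groups overlapped. PRKDC, the DNA-dependent protein kinase that Ku recruits, measured 53.9 and 51.7 TPM, against 70.9 and 52.3 TPM in the controls. XRCC4, the scaffold of the ligase, measured 5.33 and 4.45 TPM, against 5.46 and 4.25 TPM in the controls. LIG4, the ligase itself, measured 1.00 and 1.53 TPM in libraries labelled UCK2 shRNA, against 0.883 and 0.365 TPM in the controls, and did not pass the filter. The 2 genes that act in 1 complex thus differed in level, with XRCC4 averaging 4.87 TPM and LIG4 0.946 TPM.

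Mismatch repair genes showed no separation as deposited. MSH6, the partner that reads single mismatches (chromosome 2, 47695530 to 47810101), measured 40.3 and 35.1 TPM in libraries labelled UCK2 shRNA and 53.2 and 39.3 TPM in the controls. MSH3, which takes its place for larger loops, measured 2.61 and 2.47 TPM, against 3.30 and 2.29 TPM in the controls. Over the 4 libraries the means were 42.0 TPM for MSH6 and 2.67 TPM for MSH3. PMS2, an endonuclease subunit, measured 8.44 and 8.18 TPM in libraries labelled UCK2 shRNA and 10.2 and 6.67 TPM in the controls. Near-identical pseudogene copies of PMS2 make its level uncertain. The scaled differences of MSH6, MSH3 and PMS2 were -0.04, 0.09 and 0.22.

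With all 4 libraries, the 6 base excision genes lay below 0 as deposited, beside 74.7% of all genes, and after scaling, beside 50.8%. However, 3 of them, PARP2, OGG1 and UNG, lay above 0 after scaling without UCK2 shRNA replicate 2, at 0.0056, 0.041 and 0.076. PARP1, which senses single-strand breaks and makes poly(ADP-ribose) (chromosome 1, 226360691 to 226408075), measured 61.9 and 48.2 TPM in libraries labelled UCK2 shRNA, against 83.6 and 86.0 TPM in the controls. Its groups did not overlap with or without scaling. The log2 difference was -0.62 ± 0.18 (SE, limma adjusted p = 0.294), and -0.39 after scaling (95% interval -0.88 to 0.11, limma adjusted p = 0.955). Leaving out UCK2 shRNA replicate 2 moved the scaled value of PARP1 to -0.20, and leaving out UCK2 shRNA replicate 1 moved it to -0.57.

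APEX1 (chromosome 14, 20455191 to 20457772) measured 159 and 130.4 TPM in libraries labelled UCK2 shRNA and 198 and 182 TPM in the controls, a log2 difference of -0.40 ± 0.17 (SE, limma adjusted p = 0.320) and -0.16 after scaling. The glycosylases UNG, which removes uracil, and OGG1, which removes oxidised guanine, start the pathway. UNG measured 65.1 and 49.8 TPM in libraries labelled UCK2 shRNA and 72.8 and 74.2 TPM in the controls. For OGG1 the values were 34.7 and 27.3 TPM, against 40.1 and 40.04 TPM in the controls. Both genes were lowest in UCK2 shRNA replicate 2, and after scaling their groups overlapped. XRCC1, the scaffold of single-strand break repair, measured 17.3 and 17.3 TPM, against 24.2 and 20.3 TPM in the controls, and its groups stayed apart after scaling. PARP2, a second poly(ADP-ribose) polymerase, measured 15.7 and 14.4 TPM in libraries labelled UCK2 shRNA and 22.2 and 15.6 TPM in the controls. RPPH1, the RNase P RNA gene that overlaps its start on the opposite strand, measured 1498 and 722 TPM, against 1969.7 and 974 TPM in the controls.

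Other gene lists were also lower in UCK2 shRNA replicate 2. In UCK2 shRNA replicate 2 the scaled median deviation was -0.24 for base excision and -0.35 for a list of 20 replication genes, against 0.05 and 0.08 in UCK2 shRNA replicate 1. In the controls the base excision median was 0.04 and 0.16, and that of the replication list 0.14 and 0.19. The 16 mitosis genes tested had medians of 0.15 and -0.17 in UCK2 shRNA replicates 1 and 2 and of 0.14 and -0.17 in the controls, so in control replicate 2 they were low where base excision was high. The 10 hepatocyte and hepatoma markers had 0.085 and -0.22, against -0.037 and 0.19 in the controls. In such libraries fewer cells in S phase and less of these transcripts per cell cannot be told apart. The part of these lists in the repair gene values was not tested.

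Nucleotide excision genes divided in direction. XPC, the damage sensor (chromosome 3, 14145147 to 14178783), measured 21.95 and 26.1 TPM in libraries labelled UCK2 shRNA, against 34.2 and 33.4 TPM in the controls. The groups did not overlap with or without scaling, and its log2 difference was -0.48 ± 0.19 (SE, limma adjusted p = 0.310), or -0.25 scaled (95% interval -0.71 to 0.22). ERCC3 and ERCC2 are the TFIIH helicases that open the helix. ERCC3 measured 26.2 and 28.0 TPM in libraries labelled UCK2 shRNA and 37.3 and 33.1 TPM in the controls, and ERCC2 measured 19.9 and 20.1 TPM, against 27.7 and 22.03 TPM in the controls. Neither pair of groups overlapped, and the scaled differences were -0.13 and -0.06. ERCC1 and ERCC4 form the nuclease that cuts on the 5′ side of the lesion. ERCC1 measured 55.5 and 53.7 TPM in libraries labelled UCK2 shRNA and 63.1 and 75.0 TPM in the controls, while ERCC4 measured 6.88 and 7.29 TPM, against 9.98 and 8.14 TPM in the controls. The mean levels of the 2 nuclease subunits were 61.8 and 8.07 TPM.

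ERCC5, the nuclease of the 3′ side (chromosome 13, 102844844 to 102876001), lay on the other side of 0 from most of its route. It measured 7.69 and 9.46 TPM in libraries labelled UCK2 shRNA, against 8.29 and 5.14 TPM in the controls, and the groups overlapped until scaling. The scaled log2 difference of ERCC5 was 0.55 ± 0.25 (SE, limma adjusted p = 0.918), and 0.37 without control replicate 2. BIVM-ERCC5, a readthrough gene on the same strand, shares its sequence, so the level of ERCC5 is uncertain. XPA, which verifies the lesion, measured 8.14 and 9.42 TPM, against 13.2 and 7.29 TPM in the controls.

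Transcript length ran along with the difference between the libraries. Lengths were those of the longest protein-coding transcript in GENCODE 29, known for all 37 repair genes tested and for 11549 genes in all. Among all genes, control replicate 2 minus control replicate 1 had a scaled log2 median of 0.28 for transcripts up to 1500 bases and -0.22 for those over 9000 bases. UCK2 shRNA replicate 2 minus UCK2 shRNA replicate 1 ran the other way, from -0.13 to 0.14. The group difference had scaled medians of -0.13 and 0.15 in the same length classes. Split at 4000 bases, a length chosen after seeing the values, 14 of 20 longer repair genes lay above 0 after scaling, against 58.7% of all longer genes. Of the 17 shorter repair genes 6 did so (35.3%), against 37.2% of all shorter genes. Route and length coincided in part. The 6 base excision genes had lengths from 1484 to 3958 bases, and the 6 break sensing genes from 4153 to 13147 bases. For these 2 routes, route and length cannot be told apart. Spearman's rho between length and the scaled group difference was 0.45 over the 37 repair genes and 0.29 over all genes, as a description only, since the genes share the 4 libraries.

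Length did not order every gene. PRKDC has the longest transcript of the 37, at 13509 bases, and a scaled difference of 0.03, while ATM has 13147 bases and 0.71. FANCL, at 1698 bases, had a scaled difference of 0.41. In the class from 2500 to 4000 bases the 10 repair genes had a scaled median of -0.12, against -0.05 for all genes. In that from 6000 to 9000 bases the 7 repair genes had 0.35, against 0.07. The shorter classes went the other way, with repair genes less negative than all genes. Up to 1500 bases the 2 repair genes had -0.05, against -0.13, and from 1500 to 2500 bases the 5 had -0.06, against -0.10. From 4000 to 6000 bases the 11 repair genes had 0.09, against 0.01, and over 9000 bases the 2 had 0.37, against 0.15. The part of length, or of RNA quality, in these values was not tested.

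**Figure D5:**
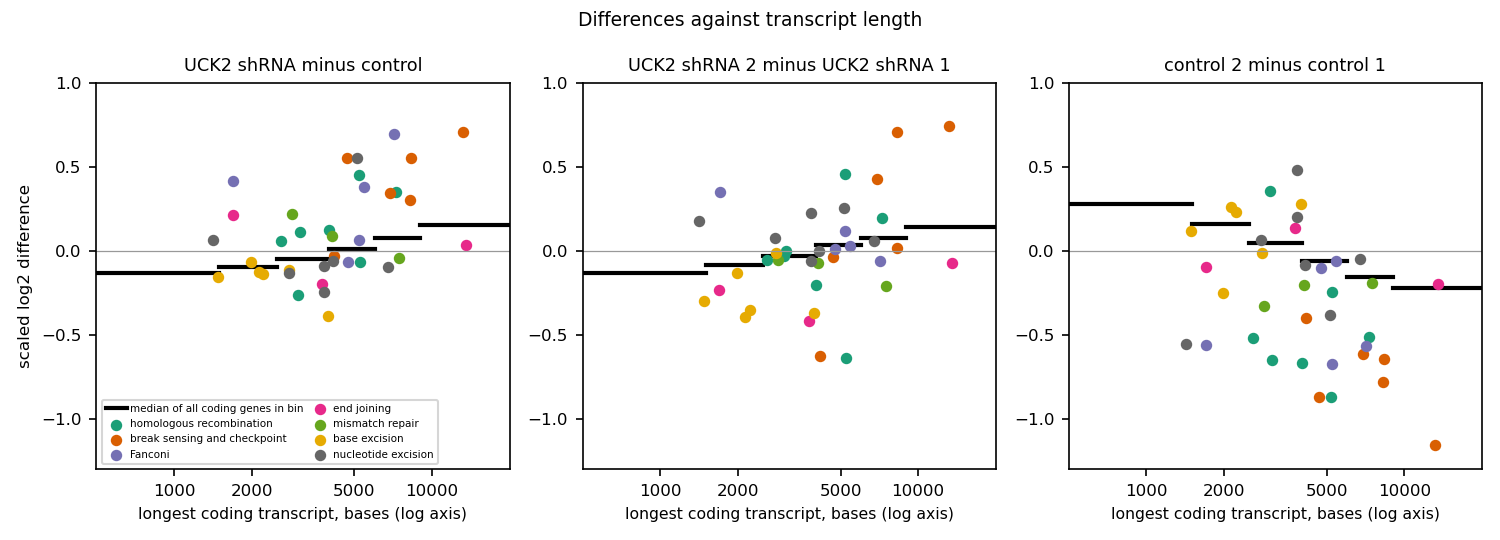
Scaled log2 differences (vertical) against the longest coding transcript (horizontal, log axis) for the 37 repair genes, coloured by route, with black bars at the median of all coding genes in each length class. The bars rise with length for UCK2 shRNA minus control and for UCK2 shRNA replicate 2 minus 1, and fall for control replicate 2 minus 1, where ATM lies lowest.

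Other genes of the same pathways were also without calls. Of 128 further repair genes listed, 123 were in the table and 120 passed the filter, and limma called 0 of them higher and 0 lower after adjustment, as deposited or scaled. Below 0 were 90 of 120 as deposited, beside 74.7% of all genes, and 58 of 120 after scaling, beside 50.8%. At an unadjusted p under 0.05, 0 of the 120 were higher and 19 lower as deposited, against 1.38% and 14.0% of all genes. After scaling 3 were higher and 1 lower, against 3.97% and 1.42%. These were ERCC6L2, FANCB and RIF1, which were higher, and C9orf142, which was lower. For the 3 higher genes control replicate 2 was the lowest library. ERCC6L2 measured 5.87 and 7.98 TPM in libraries labelled UCK2 shRNA and 5.85 and 2.58 TPM in the controls. RIF1, which steers breaks to end joining, measured 8.98 and 9.75 TPM, against 9.58 and 3.54 TPM in the controls. FANCB, a Fanconi core subunit, measured 3.31 and 1.86 TPM in libraries labelled UCK2 shRNA and 1.57 and 0.737 TPM in the controls. C9orf142, the end joining factor PAXX, measured 68.9 and 46.3 TPM, against 95.2 and 105 TPM in the controls. The most abundant of the 120 were RPA3, UBE2A and SMUG1. RPA3, of the single-strand binding complex, measured 104 and 70.5 TPM in libraries labelled UCK2 shRNA and 127 and 88.7 TPM in the controls. UBE2A, a ubiquitin-conjugating enzyme of lesion bypass, measured 79.7 and 82.2 TPM, against 112 and 103 TPM in the controls. SMUG1, a uracil glycosylase, measured 79.0 and 62.4 TPM in libraries labelled UCK2 shRNA and 91.7 and 99.5 TPM in the controls, a scaled log2 difference of -0.20.

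By route, the further base excision genes lay below 0 after scaling in 11 of 15, with a median of -0.13. Of the further mismatch repair genes 1 of 5 did so, with a median of 0.42, against 50.8% of all genes. Control replicate 2 was the lowest library in the scaled table for 3 of those 15 base excision genes and for 4 of the 5 mismatch repair genes. The further recombination genes had a scaled median of 0.01 and the further break sensing genes 0.03, beside 0.11 and 0.45 for the recombination and break sensing genes described above. The further Fanconi genes had a scaled median of -0.04, with 8 of 12 below 0, where the Fanconi genes described above had 0.38. The further nucleotide excision genes had 0.01, beside -0.09 for those above, and the further end joining genes -0.05, beside 0.03.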

How the data were processed

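RNA of 4 libraries was sequenced, and the authors deposited TPM per gene in 1 table. Per the submitters' processing notes, which give no roles, hg38 was the build and the tools were TopHat2 2.0.14, HTSeq, edgeR and DESeq. Whether counting used the strand is stated nowhere.

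Genes with a mean of at least 1 TPM were compared in R 4.3.3 by limma 3.58.1, on log2(TPM + 1), using eBayes with trend, all 4 libraries and no covariate. The fit was tested on simulated data with 200 changed genes and independent noise. That simulation held no shift of the TPM total, no outlying library and no trend with length, so it does not cover these features. Differences of log2(TPM + 1) understate the change of low genes. Scaled values were divided by median-ratio factors of 0.918 and 0.928 for the libraries labelled UCK2 shRNA and 1.19 and 1.00 for the controls. An exact permutation test cannot give a small p with 2 libraries a group and was not used. Results of some genes are not reported here. Members and lists were chosen with earlier results of these data known. Every member is named. Full values are given in each route for the highest, the lowest and those of smallest p, and for further members. Of the further repair genes, the 4 of smallest scaled p and the 3 most abundant are named. Alternatives were other scalings, pseudocount, filters, variance model, the replicate block, and leaving out each library. Promoter windows are from RefSeq (GRCh38.p14) and lengths from GENCODE 29.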

Additional observations from a re-analysis of the deposited data

How the results depend on the processing

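There were 2 libraries a group, and no depth is known. No repair gene was called under any planned setting: of 402 values of single genes, 361 kept their direction and 41, in 23 genes, did not. The filters, the variance model and the replicate block leave the log2 difference of each gene as it was. Directions under these settings could therefore not turn, and their values are among the 361. Of 37 repair genes, 7 turned with median-ratio scaling, 9 with quantile normalization and 2 to 10 with 1 library left out, while all 37 kept their direction with the other pseudocount. No gene of the table was called higher or lower as deposited with limma (194 higher and 1962 lower at an unadjusted p under 0.05). Genes called higher were 9 with median-ratio scaling and 8 with quantile normalization. With the replicate block 29 were called higher and 10 lower. The numbers share no stated origin, and the correlation of same-numbered deviations was -0.21, so the crossed pairing was also fitted, an alternative chosen after seeing the data, and called 91 higher and 636 lower, with 0 of 37 repair genes among the higher and 1, PARP1, among the lower. Leaving out 1 library gave 0 to 242 genes higher and 0 to 108 lower, with 242 and 108 without control replicate 1 and 32 and 21 without control replicate 2. The lone library is then assumed to vary like the other group. The cause was not tested. The median log2 difference of the repair genes lay between -0.44 and 0.10 when 1 library was left out as deposited, and between -0.08 and 0.19 when this was done after scaling, which was added after seeing the data.

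Directions turned with median-ratio scaling for PALB2 (0.13), RAD51C (0.059), XRCC2 (0.11), FANCD2 (0.064), PRKDC (0.034), MSH3 (0.089) and XPA (0.065). They turned with quantile normalization for PALB2 (0.013), RAD51C (0.093), XRCC2 (0.018), FANCD2 (0.097), FANCI (0.0059), PRKDC (0.137), MSH6 (0.027), APEX1 (0.017) and ERCC1 (0.036). With 1 library left out, as deposited, the log2 difference ran from -0.21 to 1.17 for ATM, -0.41 to 0.59 for ATR, -0.57 to 0.045 for BLM, -0.24 to 0.50 for BRCA1, -0.58 to 0.058 for CHEK1, -0.63 to 0.29 for FANCD2, -0.20 to 0.58 for FANCL, -0.30 to 0.54 for MRE11A, -0.28 to 0.10 for MSH3 and -0.23 to 0.87 for NBN. It ran from -0.53 to 0.36 for PALB2, -0.27 to 0.28 for PMS2, -0.42 to 0.014 for PRKDC, -0.084 to 0.77 for RAD50, -0.55 to 0.20 for RAD51C, -0.28 to 0.79 for WRN, -0.54 to 0.24 for XPA, -0.54 to 0.33 for XRCC2 and -0.14 to 0.16 for XRCC4.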
